A study of Mus musculus with 15 samples.

Results

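The 10 genes described here code for neural cell adhesion molecules of the immunoglobulin superfamily and for the astrotactins: the contactins Cntn1, Cntn2 and Cntn6, the L1 family members L1cam, Nrcam, Chl1 and Nfasc, the neural cell adhesion molecule Ncam1, and Astn1 and Astn2. They were chosen by name from the 21889 genes of the count tables, with earlier results of these data known. All 10 were among the 15259 genes tested. Poly(A) RNA of 15 mouse libraries from cerebellum was sequenced, 3 in each of 5 groups. Granule neuron precursors, the dividing cells that form the granule neurons of the cerebellum, were taken at E15.5 from animals labelled Math1-GFP, and from wild type animals at the ages P1, P7 and P14. Medulloblastoma cells, called MB here, came from mice labelled Ptch1 heterozygous, with no age given. Cells of both kinds were purified on Percoll. The series sought genes that increase as the precursors differentiate, and set P7 precursors beside the tumour.

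Contactins are held in the membrane by a lipid anchor and bind partners on the same or the facing cell, among them the L1 family proteins, which cross the membrane and attach to the cytoskeleton through ankyrins. Ncam1 mediates adhesion between like molecules, and the polysialic acid chains added to it weaken that adhesion. In the cerebellum, Cntn2 (TAG-1) marks granule cells in the inner, premigratory part of the external granular layer, and Astn1 is known for the attachment of migrating granule neurons to glial fibres, where Astn2 regulates its presence at the surface.

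RefSeq promoters were found for 9 of the 10 genes, 13 entries in all, and Ncam1 had none. The 250 bases before the start are printed, in the direction of transcription and in build GRCm38.p6, for L1cam, which had the largest difference between MB and every age, for Cntn2, the marker of premigratory granule cells, and for Cntn6 and Astn1, whose windows held the E-box CAGCTG. Capitals mark that motif, a binding site of basic helix-loop-helix factors of the Atoh1 and Neurod1 kind.
L1cam, chrX:73880791-73881040, minus strand: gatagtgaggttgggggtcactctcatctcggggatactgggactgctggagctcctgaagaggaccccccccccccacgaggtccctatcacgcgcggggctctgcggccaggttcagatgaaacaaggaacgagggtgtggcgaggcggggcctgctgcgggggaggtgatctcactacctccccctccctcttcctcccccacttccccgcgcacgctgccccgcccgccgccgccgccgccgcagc
Cntn2, chr1:132542941-132543190, minus strand: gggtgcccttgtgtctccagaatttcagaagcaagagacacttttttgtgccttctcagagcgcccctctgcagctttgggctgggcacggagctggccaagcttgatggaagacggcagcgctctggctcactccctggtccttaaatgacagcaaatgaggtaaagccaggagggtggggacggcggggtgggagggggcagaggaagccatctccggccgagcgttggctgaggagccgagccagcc
Cntn6, chr6:104492794-104493043, plus strand: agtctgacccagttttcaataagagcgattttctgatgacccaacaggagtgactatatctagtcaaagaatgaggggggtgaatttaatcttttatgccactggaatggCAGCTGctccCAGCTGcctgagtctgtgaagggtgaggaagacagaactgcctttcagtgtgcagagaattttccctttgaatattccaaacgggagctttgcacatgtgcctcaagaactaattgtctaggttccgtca
Astn1, chr1:158362054-158362303, plus strand: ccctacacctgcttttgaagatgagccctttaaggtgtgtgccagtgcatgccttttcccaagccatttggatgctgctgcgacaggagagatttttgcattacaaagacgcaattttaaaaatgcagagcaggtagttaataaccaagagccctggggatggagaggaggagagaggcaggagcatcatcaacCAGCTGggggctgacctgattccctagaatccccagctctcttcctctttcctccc
CAGCTG reads the same on both strands. It began 140 and 130 bases before the start in Cntn6 and 56 bases before it in Astn1, and was in 2 of the 13 promoters of these genes, against 4271 of 32851 RefSeq promoters in windows of the same length. The GLI motif GACCACCCA, or TGGGTGGTC on the other strand, was in none of the 13 and in 0.225% of all promoters. These matches are descriptions of the letters in the windows.

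Between 12597472 and 43443132 counts per library fell in genes. The labelled cell type was compared with 8 granule lineage markers. All were detected in every group except Gabra6, a gene of mature granule neurons, which was at 0 in the 3 E15.5 libraries. Atoh1, which defines the dividing precursors, was at 129 ± 8.53 CPM (counts per 1000000 of the TMM-scaled library, mean ± SD, n = 3) at E15.5. Its level was 47.7 ± 21.0 CPM at P1, 30.6 ± 7.85 by P7 and 11.9 ± 1.11 by P14, and in MB it was 280 ± 43.0. Other markers of the lineage went otherwise. Neurod1, a factor of differentiating granule cells, was at 533 ± 117 CPM at E15.5, 1461 ± 369.8 by P7 and 399 ± 151 in MB. Of the 8 markers, Atoh1 and Barhl1 were higher in MB than at P7, Pax6, Neurod1 and Gabra6 were lower, and 3 did not pass (edgeR). The 8 summed to 2613 to 3832 CPM at E15.5, 3067 to 4308 in P1 libraries, 5333 to 6258 in those of P7, 4961 to 5356 in those of P14 and 3443 to 4362 in MB. Ptch1 was at 202 to 349 CPM in MB and 252 to 340 at P7, and whole-gene counts do not tell its alleles apart. Markers of other cell types were present and moved with the groups. The summed level of 12 oligodendrocyte markers was 111 to 137 CPM at E15.5 and 691, 1152 and 4553 CPM in P1 replicates 1 to 3. It was 1169 to 2312 CPM at P7, 7036 to 7558 at P14 and 723 to 1002 in MB. The library labelled P1 replicate 3 therefore stood apart from the other P1 libraries, and calls and values that change by over 1.5 times without it are given both ways. The 8 astroglial markers summed to 149 to 378 CPM at E15.5, 2571 to 3840 in P1 libraries, 2005 to 4226 in those of P7, 3422 to 4425 in those of P14 and 1095 to 1355 in MB. The 8 Purkinje cell markers summed to 473 to 704 CPM at E15.5, 326 to 481 in P1 libraries, 367 to 1001 in those of P7, 330 to 493 in those of P14 and 131 to 254 in MB. The 6 endothelial markers summed to 11.2 to 30.5 CPM at E15.5, 376 to 567 in P1 libraries, 285 to 348 in those of P7, 691 to 725 in those of P14 and 17.6 to 31.5 in MB. Other lists reached high levels in single libraries, with 4 choroid plexus markers at 294, 10263 and 3876 CPM in P1 replicates 1 to 3. No marker of these other types was at 0 in all libraries of a group. The part of these cells in the results below was not tested.

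**Figure D1:**
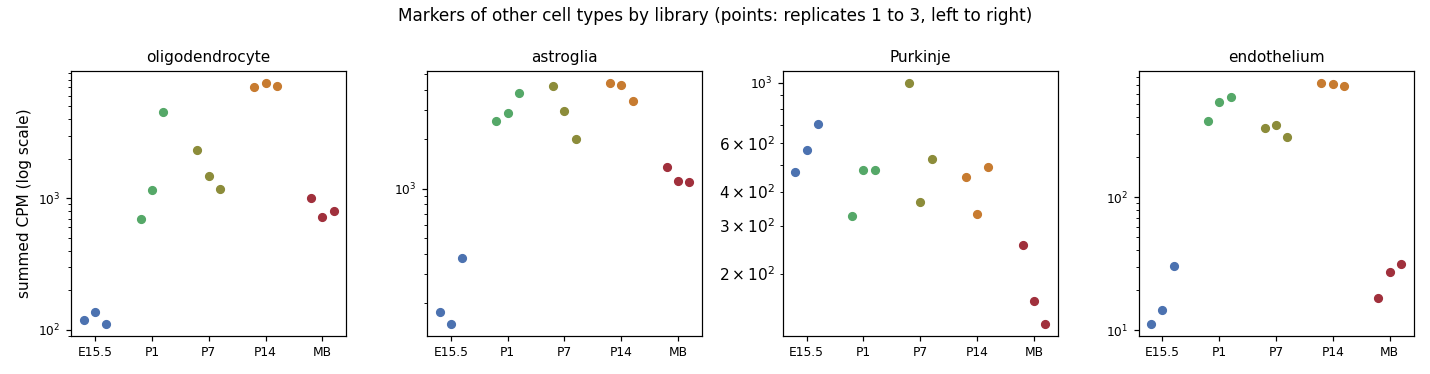
Summed CPM of the markers of 4 other cell types (log axis), 1 point per library in replicate order within each group. P1 replicate 3 lies at 4553 CPM for oligodendrocyte markers, above the other P1 libraries at 691 and 1152, and the P14 libraries lie at 7036 to 7558.

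The libraries also fell into 2 counting sets, told apart by Tsnax, whose count in the gene table was no more than 0.273% of that in the transcript table in 6 libraries and 92.4% or more in the other 9. The first set held E15.5 replicates 1 and 3, the 3 P7 libraries and MB replicate 1. For the 8 genes described here that could be compared, the gene table held 93.5% to 101% of the transcript table's count in that set and 96.2% to 101% in the other. All P1 and P14 libraries were in the other set, so neither P7 against P1 nor P14 against P7 could be compared within a set. With the set as a term, estimated from the E15.5 and MB libraries that lie in both sets, none of the 10 genes was called in either. The values moved by over 1.5 times for Cntn2, to 1.96 in P7 against P1 (FDR 0.167, 0.97 without the term) and -0.74 in P14 against P7 (FDR 0.634, 0.25 without it), and in P1 against E15.5 to -0.30 (FDR 0.750, 0.43 without it). L1cam moved to 1.42 in P7 against P1 (FDR 0.160, 0.81 without the term) and to -0.57 in P14 against P7 (FDR 0.599, 0.03 without it). Where a set holds 1 library of a group, that library was taken to vary like the others.

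In MB, 9 of the 10 genes were lower than at P7 (edgeR, FDR under 0.05), where 20.7% of all 15259 genes were called lower, and none was called higher, where 13.7% of all genes were. Ncam1 was the exception. Against P14, 8 genes were lower in MB and none higher, where 27.2% of all genes were called lower and 22.9% higher, with Ncam1 and Astn1 not called. Against P1, 7 were lower (22.6% of all genes), and against E15.5, 7 were lower (24.2% of all genes). Cntn1, Cntn6, L1cam, Nrcam, Chl1 and Nfasc were called lower in MB in each of these 4 comparisons. The median log2 change of the 10 genes was -1.62 in MB against P7, beside 0.02 over all genes tested, and -1.83 in MB against P14, beside 0.01. Every MB library lay below every P7 library for 9 of the 10 genes. This held for 23.9% of all genes tested. Against P14 it held for 8 of the 10 (32.7% of all genes), against P1 for 8 (25.7%) and against E15.5 for 7 (26.0%). The comparisons share the MB libraries. Fewer cells of a type in a sample and less RNA of a gene per cell cannot be told apart in these bulk libraries. Markers of other cell types also differed between MB and P7. All 6 endothelial and all 6 pericyte and fibroblast markers were lower in MB, as were 8 of 12 oligodendrocyte (2 higher), 6 of 8 astroglial, 6 of 8 Purkinje (1 higher), 5 of 7 GABAergic interneuron, 1 of 4 choroid plexus and both tested erythroid markers. Of 7 microglia and macrophage markers, 4 were higher and none lower, with sums of 138 to 395 CPM in MB and 41.0 to 128 at P7. GABAergic interneuron markers had the lowest median log2 change of these lists, -5.73, while their sums overlapped, at 446 to 519 CPM in MB and 477 to 729.6 at P7. With 1 library left out, the count of lower genes was 7 to 9 against P7 and 8 to 9 against P14.

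**Figure D2:**
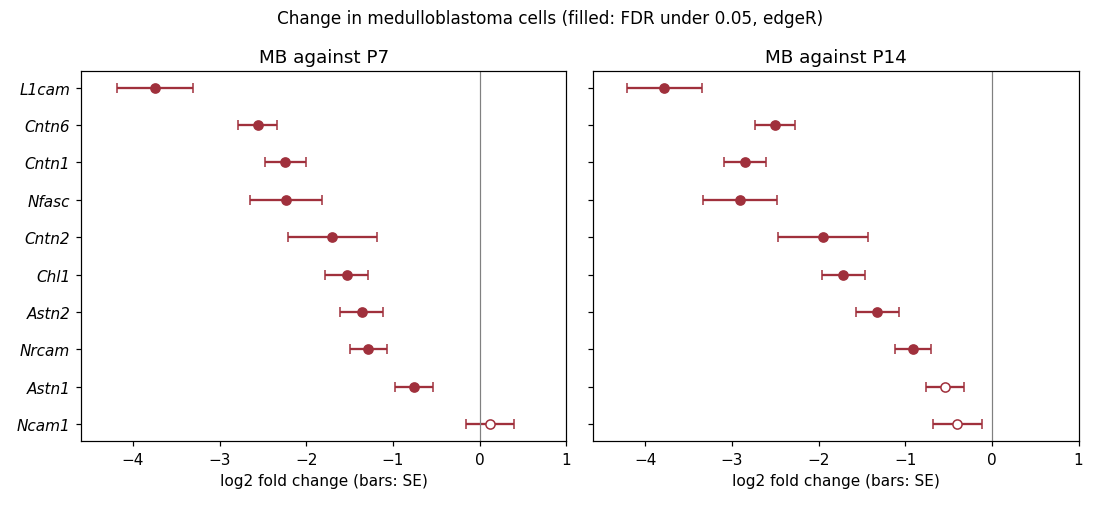
Log2 fold change of each gene in MB against P7 (left) and against P14 (right), with the standard error as bars; filled points passed an FDR of 0.05 in edgeR's test. All genes but Ncam1 lie below 0 against P7, from -3.75 for L1cam to -0.76 for Astn1.

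Over the 4 ages of precursors, 5 of the 10 genes changed (edgeR, any difference, FDR under 0.05), where 55.7% of all genes did: Cntn1, Cntn2, Chl1, Astn1 and Astn2. With 1 library left out the count was 2 to 7. The lowest count came without E15.5 replicate 2, when Cntn1 and Astn2 were called. Against E15.5, Cntn1 was higher and Astn1 lower at P1, where 25.4% of all genes were higher and 20.9% lower. At P7, Cntn1, Cntn2 and Astn2 were higher and Chl1 and Ncam1 lower than at E15.5, where 21.6% of all genes were higher and 16.2% lower. At P14, Cntn1, Cntn2 and Astn2 were higher and Chl1 and Astn1 lower than at E15.5, where 26.7% and 24.2% of all genes were called in each direction. All libraries of P1, P7 and P14 lay above all of E15.5 for 2, 4 and 4 of the 10 genes. Of all genes tested, 30.5%, 27.2% and 34.3% did so. They lay below for 1, 1 and 2 of the 10, and for 27.3%, 22.3% and 32.2% of all genes. These comparisons share the E15.5 libraries, which also differ from the other precursors in genotype label, so age and genotype cannot be told apart in them. Markers of other cell types differed too. All 8 astroglial, 12 oligodendrocyte, 6 endothelial, 6 pericyte and fibroblast and 4 choroid plexus markers were higher at P1 than at E15.5. So were 6 of 7 microglia and macrophage and both tested erythroid markers. Of 8 Purkinje markers 3 were higher and 1 lower, and of 7 GABAergic interneuron markers 1 was higher and 5 lower. The part of these cells in the changes from E15.5 was not tested.

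Between postnatal ages no gene of the 10 was called with edgeR. In P7 against P1, 3.15% of all genes were called, and 2 of the 10 genes had an unadjusted p under 0.05. In P14 against P7, 10.3% of all genes were called, and 1 of the 10 had an unadjusted p under 0.05. In P14 against P1, 8.94% of all genes were called, and 4 of the 10 had an unadjusted p under 0.05. The share of all genes with an unadjusted p under 0.05 is not given here. These counts at unadjusted p therefore cannot be set beside the shares called, which rest on the FDR. DESeq2 called none of the 10 in the first and second of these comparisons and 1, Nfasc, in P14 against P1. The shares of all genes above come from edgeR's fit of all 15 libraries, and none is given here for other fits. All P7 libraries lay below all P1 libraries for 1 of the 10 genes, and for 14.7% of all genes. In P14 against P7, 2 of the 10 lay wholly higher (24.9% of all genes) and 1 wholly lower (21.4%). In P14 against P1, 1 lay wholly higher (26.5% of all genes). The counts of the 10 genes called rested in part on P1 replicate 3. Without it, edgeR called Nfasc and Astn2 in P7 against P1, and Cntn2, L1cam, Nfasc and Astn2 in P14 against P1, all of them higher at the later age. In that library Nfasc was 3.03 times, Cntn2 2.80 times, L1cam 2.36 times and Astn2 1.63 times the mean of the other P1 libraries, beside oligodendrocyte markers of 4553 against 691 and 1152 CPM. The 8 granule lineage markers summed to 4308 CPM there, against 3511 and 3067. Over the P1 libraries Gabra6 ran from 1.12 to 102 CPM, Rbfox3 from 105 to 343 and Atoh1 from 24.5 to 65.4. Whether cells of either lineage account for the levels of Nfasc, Cntn2, L1cam and Astn2 was not tested.

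**Figure D3:**
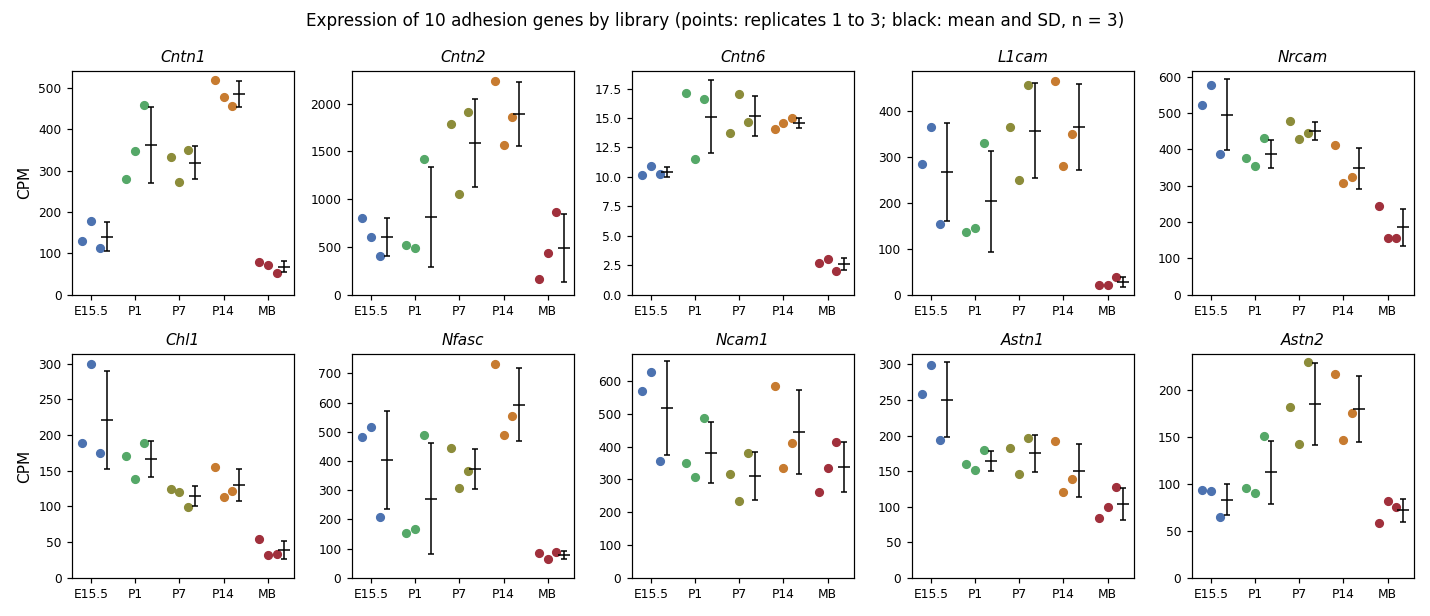
CPM of each gene in each of the 15 libraries, with replicates 1 to 3 from left to right and the group mean and SD in black (n = 3). The MB libraries lie below all others for Cntn1, Cntn6, L1cam, Nrcam, Chl1 and Nfasc, and within the range of the other groups for Ncam1. Of all genes tested, 23.9% have every MB library below every P7 library.

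Among the contactins, Cntn1 was higher at P1, P7 and P14 than at E15.5 and low in MB. It binds the receptor phosphatase Ptprz1 and, with Cntnap1, forms part of the axon-glia junction. It lies at chr15:92051165-92341967 on the plus strand of GRCm38. Its level was 131, 179 and 112 CPM in E15.5 replicates 1 to 3, 279, 349 and 460.3 in the P1 libraries, and 334, 274 and 350.4 in the P7 libraries. It was 519, 479 and 457 CPM in the P14 libraries and 77.9, 72.7 and 51.6 in the MB libraries. The E15.5 and MB libraries did not overlap each other, and both lay below every postnatal library. At P1, Cntn1 was higher than at E15.5 by a log2 change of 1.37 (SE 0.23, FDR 0.000221, edgeR), and P14 lay 1.79 (SE 0.23, FDR 1.78e-05) above E15.5. In MB it was lower by a log2 change of -2.24 than at P7 (SE 0.23, FDR 3.54e-06, edgeR), a 4.74-fold difference, and by -1.06 than at E15.5 (FDR 0.00118). The last of these was not called within the first counting set, which holds 1 MB library (-0.61, FDR 0.178). P1, P7 and P14 did not differ beyond the test's threshold, although every P14 library except replicate 3 lay above every P1 library and all 3 lay above every P7 library. In P14 against P7 the log2 change was 0.60 (FDR 0.095, edgeR), and in a fit of these groups alone it was called (FDR 0.0215).

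Cntn2 (chr1:132509427-132543256, minus strand) was at its highest at P7 and P14 and spread widely in MB. It was at 805, 601 and 399.6 CPM in E15.5 replicates 1 to 3 and at 522, 491 and 1416 in the P1 libraries. It reached 1791, 1055 and 1913 CPM at P7 and 2239.8, 1569 and 1858 at P14. In MB replicates 1 to 3 it was at 165, 436 and 865 CPM. The MB libraries lay below all P7 and P14 libraries and overlapped those of E15.5 and P1. Cntn2 was higher at P14 than at E15.5 by a log2 change of 1.65 (SE 0.52, FDR 0.0150, edgeR) and at P7 than at E15.5 by 1.40 (SE 0.51, FDR 0.0431). Neither call held without E15.5 replicate 3 (1.36, FDR 0.0757 for P14 and 1.13, FDR 0.169 for P7), and with the counting set as a term the change to P14 was 0.92 (FDR 0.298). The change to P7 was also not called without E15.5 replicate 2 (FDR 0.0867), P7 replicate 1 (FDR 0.109) or P7 replicate 3 (FDR 0.107). It was lower in MB than at P7 by a log2 change of -1.70 (SE 0.52, FDR 0.0185, edgeR) and than at P14 by -1.95 (SE 0.52, FDR 0.00580). The call against P7 missed the threshold without P7 replicate 1 (-1.55, FDR 0.0557), P7 replicate 3 (-1.54, FDR 0.0550) or MB replicate 2 (-1.62, FDR 0.0599), and in a fit of these groups alone (-1.66, FDR 0.0614). Without MB replicate 3, the highest, the changes were -2.40 against P7 and -2.65 against P14. Against P7 the change was -2.54 with the counting set as a term (FDR 0.0134) and -3.22 within the first set (FDR 0.00271), where MB is replicate 1 alone, the lowest. Against E15.5 it was -0.30 (FDR 0.642, edgeR) over all libraries, -1.001 without MB replicate 3 (FDR 0.117) and -1.84 within the first set (FDR 0.0197). Its 4-age test (FDR 0.0342, edgeR) lost its call without any of E15.5 replicates 2 and 3, P1 replicates 1 and 2, P7 replicates 1 and 3 or P14 replicates 1 and 3, at FDRs of 0.0518 to 0.0976. In MB against P1 the log2 change was -0.73 (FDR 0.278, edgeR). It was -0.05 without P1 replicate 3 (FDR 0.951), and was called without MB replicate 3 (-1.43, FDR 0.0421). Without P1 replicate 3, P1 against E15.5 moved from 0.43 (FDR 0.510) to -0.25 (FDR 0.721), P7 against P1 from 0.97 (FDR 0.305) to 1.65 (FDR 0.0803) and P14 against P1 from 1.22 (FDR 0.136) to 1.90 (FDR 0.0238). Neighbours in the order of its group means, which ran MB, E15.5, P1, P7 and P14 from lowest, did not differ beyond the threshold.

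Cntn6 (chr6:104492790-104863406, plus strand), a contactin with a role in the formation of parallel fibre synapses, was lower in MB than at every age. It was at 10.1, 10.9 and 10.2 CPM in the E15.5 libraries, 17.2, 11.6 and 16.6 at P1, 13.8, 17.0 and 14.7 at P7 and 14.1, 14.6 and 14.98 at P14. In MB it was at 2.66, 3.00 and 2.00 CPM, from 67, 123 and 50 counts. The MB libraries lay below all others, and every postnatal library lay above every E15.5 library. Its log2 change was -2.56 in MB against P7 (SE 0.23, FDR 8.14e-07, edgeR), a 5.90-fold difference, and -2.02 against E15.5 (SE 0.23, FDR 3.40e-06). P1 against E15.5 gave 0.54 (FDR 0.0515), P7 against E15.5 gave 0.54 (FDR 0.0579) and P14 against E15.5 gave 0.48 (FDR 0.0710, edgeR), none of which passed, while DESeq2 called all 3, at FDR 0.0220, 0.0291 and 0.0357. P1 against E15.5 also passed without P1 replicate 2 (0.70, FDR 0.0255).

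In the L1 family, L1cam, which guides axon growth and bundling, showed the largest fall of the 10 genes in MB. L1cam (chrX:73853778-73896105, minus strand) was at 283, 364 and 153 CPM in the E15.5 libraries, 135, 144 and 329 at P1, 365, 249.5 and 455 at P7 and 464, 280.3 and 349.8 at P14. It was at 21.2, 19.9 and 38.7 CPM in the MB libraries. The highest MB library lay below the lowest precursor library, while the 4 ages overlapped. L1cam had a log2 change of -3.75 in MB against P7 (SE 0.43, FDR 9.75e-06, edgeR), a 13.4-fold difference, -3.78 against P14 (SE 0.44, FDR 6.08e-06), -2.93 against P1 (SE 0.42, FDR 5.70e-05) and -3.33 against E15.5 (SE 0.43, FDR 1.31e-05). Over the alternatives, the change against P7 ran from -4.16 to -3.53. No difference among the ages passed (FDR 0.202, edgeR), but without P1 replicate 3 the 4-age test did (FDR 0.0300), as did P14 against P1 (1.39, FDR 0.0240). Exons of L1cam overlap those of Arhgap4, which was at 2.12 to 5.85 CPM, and reads there cannot be assigned without a strand setting, which is not given in the sources used here.

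Nfasc, which gathers ion channel complexes at the axon initial segment and node and is also made by oligodendrocytes, had the next largest fall of its family in MB against P7. Nfasc lies at chr1:132564690-132741797 on the minus strand, 21433 bases from Cntn2, its neighbour on the same strand. It was at 483, 515 and 209 CPM in the E15.5 libraries, 155, 168 and 489.9 at P1, 444.5, 307 and 365 at P7 and 733, 489.8 and 555 at P14. It was at 83.6, 64.0 and 89.6 CPM in MB. All MB libraries lay below all precursor libraries, and P1 replicate 3 lay among the P14 libraries. Nfasc had a log2 change of -2.23 in MB against P7 (SE 0.42, FDR 0.000672, edgeR), -2.91 against P14 (SE 0.43, FDR 5.53e-05) and -1.78 against P1 (SE 0.41, FDR 0.00301), the last -1.03 without P1 replicate 3 (FDR 0.0231). P14 against P1 gave 1.13 (SE 0.40, FDR 0.0884, edgeR). Without P1 replicate 3, this became 1.87 (FDR 0.00213), P7 against P1 moved from 0.46 (FDR 0.570) to 1.20 (FDR 0.0499), and P1 against E15.5 moved from -0.57 (FDR 0.258) to -1.32 (FDR 0.00682). The 4-age test moved from an FDR of 0.118 to 0.00313 without that library. The oligodendrocyte marker sum was also highest at P14, and within P1 in replicate 3. It was lowest at E15.5, at 111 to 137 CPM, where Nfasc was at 209 to 515. In MB, where Nfasc was lowest, the sum was 723 to 1002 CPM. The part of these cells in the Nfasc level was not tested. P14 against P7, at 0.67 (FDR 0.293, edgeR), was called in a fit of these groups alone (FDR 0.0424).

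Chl1, the close homolog of L1, was highest at E15.5 and lowest in MB. Chl1 lies at chr6:103510586-103750211, on the plus strand, 742578 bases before Cntn6. It was at 188, 299.7 and 175 CPM in the E15.5 libraries, 170.5, 139 and 189 at P1, 125, 119.8 and 99.3 at P7 and 155, 112 and 122 at P14. In MB it was at 54.1, 31.2 and 33.4 CPM. MB lay below all other libraries, and every P7 library lay below every P1 and E15.5 library. At P7, Chl1 had a log2 change of -0.95 against E15.5 (SE 0.25, FDR 0.00711, edgeR) and -0.77 at P14 against E15.5 (SE 0.24, FDR 0.0164). The second was not called without E15.5 replicate 2 (-0.49, FDR 0.101), P14 replicate 2 (-0.68, FDR 0.0675) or P14 replicate 3 (-0.72, FDR 0.0570). The 4-age test (FDR 0.0153) was not passed without E15.5 replicate 2 (FDR 0.0690). In MB, Chl1 was lower than at P7 by a log2 change of -1.53 (SE 0.25, FDR 0.000212, edgeR) and than at E15.5 by -2.48 (SE 0.26, FDR 1.65e-06). The latter was -1.72 in the first counting set, which holds 1 MB library, and -3.20 in the second, which holds 1 E15.5 library.

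Nrcam (chr12:44328885-44601964, plus strand), which like Nfasc works at the node and in axon guidance, differed little among the ages. It was at 521, 578 and 387 CPM in the E15.5 libraries, 375, 354 and 431 at P1, 478, 429.6 and 445 at P7 and 413, 307 and 325 at P14. It was at 244, 156 and 156 CPM in MB. The MB libraries lay below all others, and P14 lay below P7 in every library. Nrcam had a log2 change of -1.28 in MB against P7 (SE 0.21, FDR 0.000241, edgeR), a 2.44-fold difference, and -0.91 against P14 (SE 0.21, FDR 0.00217). Within the first counting set, with MB replicate 1 alone, the change against P7 was -0.84 (FDR 0.0979). P14 against P7 gave -0.37 (FDR 0.260), and the 4-age test gave an FDR of 0.158 (edgeR), or 0.0338 without E15.5 replicate 3. P14 against E15.5 gave -0.51 (FDR 0.0542, edgeR), and was called without E15.5 replicate 3 (-0.73, FDR 0.00960) or P14 replicate 1 (-0.65, FDR 0.0387). Without E15.5 replicate 3, P1 against E15.5 was called too (-0.56, FDR 0.0409).

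Ncam1 (chr9:49502136-49798925, minus strand) did not differ between MB and any age beyond the test's threshold. It was at 571, 627 and 357 CPM in the E15.5 libraries, 351, 307 and 486 at P1, 317, 233 and 381 at P7 and 585, 336 and 411 at P14. In MB it was at 263, 335 and 414 CPM. The MB libraries overlapped those of every age. The log2 change was 0.12 in MB against P7 (SE 0.28, FDR 0.782, edgeR) and ranged from -0.21 to 0.29 over the alternatives. It was -0.40 against P14 (SE 0.28, FDR 0.253), -0.18 against P1 (FDR 0.652) and -0.62 against E15.5 (SE 0.28, FDR 0.0786). The last was called without E15.5 replicate 3 (-0.82, FDR 0.0254). Ncam1 was lowest at P7, by -0.74 against E15.5 (SE 0.28, FDR 0.0497, edgeR), where P7 replicate 3 lay above E15.5 replicate 3. That call was not made without E15.5 replicate 1 (FDR 0.122), E15.5 replicate 2 (FDR 0.150), P7 replicate 1 (FDR 0.0825) or P7 replicate 2 (FDR 0.171). The 4-age test, at an FDR of 0.138 (edgeR), passed without E15.5 replicate 3 (FDR 0.0422). With the replicate number as a block, P7 against E15.5 was -0.78 (FDR 0.0519). Exons of Ncam1 overlap those of Gm11149, which was at 0.105 to 1.96 CPM.

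The astrotactins went opposite ways over age. Astn1 (chr1:158362273-158691781, plus strand) was at 258, 299 and 194 CPM in the E15.5 libraries, 159.8, 152 and 179.6 at P1, 182, 146 and 197 at P7 and 192, 120.1 and 139 at P14. It was at 83.4, 99.1 and 127 CPM in MB. Every P1 library lay below every E15.5 library, and MB lay below P7 but overlapped P14. The log2 change was -0.61 at P1 against E15.5 (SE 0.22, FDR 0.0325, edgeR) and -0.74 at P14 against E15.5 (SE 0.22, FDR 0.0115). The P1 call was not made without E15.5 replicate 1 (FDR 0.0751), E15.5 replicate 2 (FDR 0.122), P1 replicate 1 (FDR 0.0807) or P1 replicate 2 (FDR 0.102), nor with upper-quartile scaling (-0.48, FDR 0.0944), which moves the median of all genes by 0.14 in that comparison. The P14 call was not made without E15.5 replicate 2 (FDR 0.0511) or P14 replicate 2 (FDR 0.0609). In MB, Astn1 was lower than at P7 by a log2 change of -0.76 (SE 0.22, FDR 0.0139, edgeR), or 1.69-fold. That call missed the threshold without P7 replicate 1 (-0.68, FDR 0.0544) or P7 replicate 3 (-0.67, FDR 0.0517) and within the first counting set, with 1 MB library (-1.02, FDR 0.0550). Against P14 the change was -0.54 (FDR 0.0507, edgeR), and it was called without P14 replicate 2 (-0.68, FDR 0.0310) or MB replicate 3 (-0.72, FDR 0.0225). Against P1 it was -0.67 (FDR 0.0253), and it was not called without P1 replicate 3 (FDR 0.0834), MB replicate 1 (FDR 0.0803) or MB replicate 2 (FDR 0.0736). The 4-age test (FDR 0.0343) lost its call without any of E15.5 replicates 1 and 2, P1 replicates 1 and 2 or P14 replicates 2 and 3, at FDRs of 0.0550 to 0.170.

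Astn2 (chr4:65380803-66404611, minus strand), with Trim32 inside it but no shared exon, was at 93.1, 92.1 and 64.4 CPM in the E15.5 libraries, 95.7, 89.9 and 151 at P1, 182, 143 and 230.0 at P7 and 217, 147 and 176 at P14. In MB it was at 58.1, 81.9 and 75.7 CPM. All P7 and P14 libraries except P7 replicate 2 and P14 replicate 2 lay above all P1 libraries, and all of them lay above those of E15.5 and MB. The log2 change was 1.15 at P7 against E15.5 (SE 0.25, FDR 0.00212, edgeR) and 1.11 at P14 against E15.5 (SE 0.25, FDR 0.00171). MB was lower than P7 by -1.36 (SE 0.25, FDR 0.000564, edgeR), a 2.57-fold difference, and than P14 by -1.32 (SE 0.25, FDR 0.000436). MB and E15.5 overlapped, with a log2 change of -0.21 (FDR 0.498). Against P1 the change in MB was -0.64 (FDR 0.0502, edgeR), and it was called without P1 replicate 1 (-0.75, FDR 0.0470) or P1 replicate 2 (-0.78, FDR 0.0388). Without P1 replicate 3, Astn2 was higher at P7 than at P1 by 1.00 (FDR 0.0344) and at P14 than at P1 by 0.96 (FDR 0.0172).

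**Figure D4:**
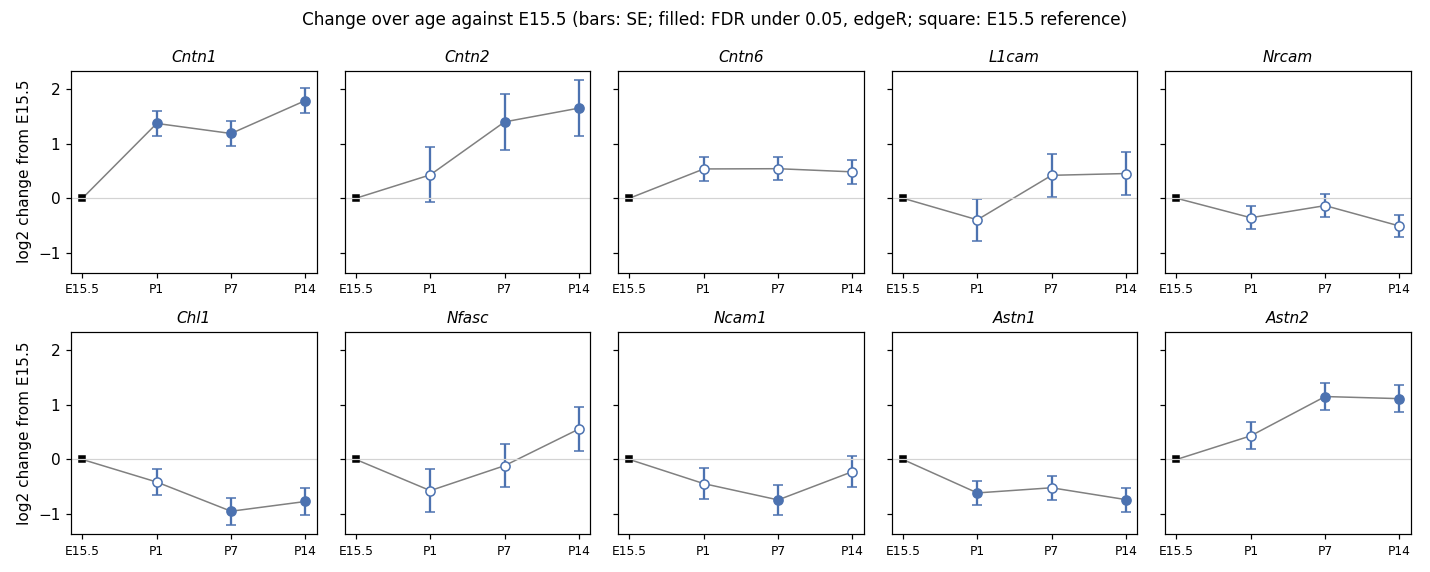
Log2 change of each gene at P1, P7 and P14 against E15.5, with the standard error as bars and filled points where edgeR's FDR was under 0.05. Cntn1, Cntn2 and Astn2 lie above 0 and are filled at P14, Chl1 and Astn1 lie below 0 and are filled there.

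Levels per kilobase of exon could be compared between 8 of the genes, using the longest transcript that the deposited table ties to each. At P7, Cntn2 was at 166 ± 48.7 CPM per kilobase, Nrcam at 59.6 ± 3.29, Cntn1 at 56.3 ± 7.13 and Nfasc at 38.0 ± 7.06 (mean ± SD, n = 3). Astn2 was at 37.3 ± 8.79, Astn1 at 24.3 ± 3.66, Chl1 at 14.8 ± 1.74 and Cntn6 at 4.09 ± 0.45. Nrcam and Cntn1 lay within 1 SD of each other, as did Nfasc and Astn2. In MB, Cntn2 was at 51.3 ± 37.1, Nrcam at 24.5 ± 6.68, Astn2 at 14.5 ± 2.49, Astn1 at 14.4 ± 3.10 and Cntn1 at 11.9 ± 2.46, with Nfasc at 8.09 ± 1.37, Chl1 at 5.11 ± 1.62 and Cntn6 at 0.690 ± 0.138 CPM per kilobase.

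The other genes of the system were taken from a list of 29 by known role, of which 28 were tested. In MB against P7, 16 were lower, 1 was higher and 11 did not pass (edgeR), where 20.7% of all genes were lower and 13.7% higher, with a median log2 change of -0.84 beside 0.02 over all genes. In MB against P14, 20 were lower and 1 higher, with a median of -1.53, where 27.2% of all genes were lower and 22.9% higher. In P1 against E15.5, 5 of the 28 were higher and 8 lower, where 25.4% and 20.9% of all genes were. In P14 against P1, 1 was lower and none higher, where 8.94% of all genes were called. The gene higher in MB was Ptprg, a receptor phosphatase that binds contactins, named after its values were seen. It was at 326 ± 262 CPM in MB, from 164 to 628, and at 157 ± 10.2 at P7, from 146 to 166. The log2 change was 1.05 (FDR 0.0373, edgeR). The MB libraries spread widely, and the lowest lay within the range of P7. No fit with a library left out is given for Ptprg.

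Both enzymes that add polysialic acid to Ncam1 were lower in MB, where Ncam1 itself did not pass. St8sia2 was at 300 ± 98.1 CPM at E15.5 and fell to 87.1 ± 19.0 at P7 and 8.08 ± 4.45 in MB, a log2 change of -3.44 against P7 (FDR 7.0e-06, edgeR). St8sia4 was at 57.7 ± 6.64 CPM at E15.5, 18.7 ± 7.97 at P7 and 1.25 ± 0.484 in MB, a log2 change of -3.90 against P7 (FDR 6.9e-07). The matrix glycoprotein Tnc, a ligand of Cntn1 made by astroglia, was at 313 ± 182 CPM at P7 and 14.4 ± 4.67 in MB (-4.44, FDR 1.0e-06). It was also higher at P1 than at E15.5 (2.70, FDR 4.9e-05), as were the astroglial marker sums given above. In MB against E15.5 they went opposite ways. Tnc was lower in MB (-2.03, FDR 0.00031, edgeR), while the astroglial sums were 1095 to 1355 CPM in MB and 149 to 378 at E15.5. The part of astroglia in the Tnc level was not tested.

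Cntn5 and 3 of the 7 contactin-associated proteins, which pair with contactins at axonal contacts, had 5 counts or fewer over the MB libraries. One of these was Cntnap3, which was too low in all groups to be tested. Cntnap5a had 275 counts over the 3 P7 libraries and 5 over the 3 MB libraries. Scaled by library size, its ratio of P7 to MB was 52.0 (exact 95% interval 22.0 to 161). Cntnap5c had 112 and 2 counts, a ratio of 52.9 (14.3 to 442), and Cntn5 had 118 and 3, a ratio of 37.2 (12.4 to 183). These intervals cover counting error only. All 3 were low already at P7, at means of 2.89 CPM for Cntnap5a, 1.18 for Cntnap5c and 1.25 for Cntn5. Cntn5 was also lower at P14 than at P1 by a log2 change of -2.53 (FDR 0.0013, edgeR). Of the 6 contactin-associated proteins tested, 4 were lower in MB than at P7 and none higher, and of the 5 ankyrin and spectrin genes that anchor the L1 family, 2 were lower and none higher. Of all genes tested, 20.7% were lower. Cntnap1, named after its values were seen, was at 148 ± 14.2 CPM at P7 and 206 ± 128 in MB (0.47, FDR 0.436, edgeR). Against E15.5 it was higher in MB (2.73, FDR 0.00018, edgeR), where 5 of the 6 contactin-associated proteins were lower.

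For each of the 10 genes, the 2 genes outside these lists with the most similar pattern were found among 11477 genes, by the root mean square difference of centred log2 CPM over 15 libraries. The closest match belonged to Astn1, with Kdm5b at 0.130 and Rbfox2 at 0.136. Nrcam was nearest to Dcx, at 0.159, and Adgrl3, at 0.199. Astn2 was nearest to Mtss1 (0.168) and Mast3 (0.188), Ncam1 to Dnmt3a (0.223) and Wdr81 (0.242), and Chl1 to Reps2 (0.239) and Ppargc1a (0.295). Among the contactins, Cntn1 was nearest to Sphkap (0.248) and Rbpms (0.264), Cntn6 to Lrrc4c (0.253) and Pex11a (0.262), and Cntn2 to Scrt2 (0.279) and Shank3 (0.372). L1cam was nearest to Sez6 (0.284) and Pitpnm3 (0.317), and Nfasc to Cadm2 (0.305) and Dnajc6 (0.329). Between the 10 genes themselves, Nrcam and Astn1 were the most alike pair, at 0.318, followed by Ncam1 and Astn1 at 0.348 and Nrcam and Chl1 at 0.440. L1cam and Ncam1 were the least alike, at 1.37. All values share the same libraries and depths.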

How the data were processed

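Per the labels' protocols, RNA of Percoll-purified cells was DNase-treated and selected for poly(A), and TruSeq libraries were sequenced on an Illumina HiSeq. The submitters' processing notes name Trimmomatic, TopHat, StringTie, HTSeq and mm9, with no versions. The authors deposited raw read counts per gene, per transcript and per TSS model for each library, none of them normalized. Records in no gene, 44.6% to 60.5% of a library, were left out, and 12597472 to 43443132 counts remained.

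Genes kept by filterByExpr (minimum count 10, minimum total 15), 15259 in all, were scaled with TMM and fitted in 1 quasi-likelihood model of all 15 libraries in edgeR 4.0.16 (R 4.3.3, 10 residual degrees of freedom). P-values were adjusted by Benjamini-Hochberg over all genes tested (FDR, called under 0.05). Nothing says that replicates came from separate animals or litters, so p-values measure only the spread between these samples. The script was tested on simulated data. CPM are counts per 1000000 of the TMM-scaled library. Gene positions are from GENCODE M21 (GRCm38), another build than the deposited files', and none was converted. Symbols matched 20358 of 21889 genes.

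The genes and lists were chosen with earlier results of these data known. All 10 genes are named. Of the 29 partner genes, up to 6 per comparison are named, by size of change among those called and at least 2-fold changed in MB against P7 or P14 against P1. Ptprg, Cntnap1 and Cntnap3 are named outside this rule. The genes most alike had a mean of at least 5 CPM (prior count 2). Alternatives were DESeq2 1.42.0, RLE and upper-quartile scaling, no filter, the compared groups alone, each library left out, a replicate block, the other tables, and counting sets apart or as a term.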

Additional observations from a re-analysis of the deposited data

How the results depend on the processing

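No called log2 change reversed its direction under any alternative run. The number of the 10 genes called was, with 1 library left out, 1 to 3 in P1 against E15.5, 0 to 2 in P7 against P1, 0 to 0 in P14 against P7, 0 to 4 in P14 against P1, 7 to 9 in MB against P7, 8 to 9 in MB against P14 and 2 to 7 over the 4 ages. Within the second counting set, which holds 1 E15.5 library, it was 4 in P1 against E15.5 (Cntn1, Nrcam, Chl1 and Astn1, against 2) and 1 in P14 against P1 (Astn2, against 0). In P14 against P7 a fit of these groups alone called 2 (Cntn1 and Nfasc, against 0), and in P14 against P1 DESeq2 called 1 (Nfasc). The TSS model table ties 6 of the genes to a model and called 5 of them in MB against P14, against 8 of 10. Fewer genes could be counted there. The cause of the other changes was not tested. For these alternatives the share of all genes called is not given. The test of TSS model usage was not run, since no gene had more than 1 tied model. Without the filter on low counts, and with RLE scaling, the transcript table or the counting set as a term, each count of called genes stayed within 1.5 times the main count. Upper-quartile scaling moved the median log2 change of all genes by up to 0.19.

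The check did not show that replicate numbers pair the samples. The correlation of the deviations of same-numbered libraries was -0.31 to 0.33 over 30 pairs, with 7 over 0.1. Between libraries of unlike number it was -0.48 to 0.47. Deviations from a mean of 3 libraries depend on each other, so the check cannot exclude a pairing. With the number as a block the counts were 2, 0, 0, 0, 9, 8 and 5 in the order above, as without it. Among single genes the block took Cntn2 (1.29, FDR 0.0531) and Ncam1 (-0.78, FDR 0.0519) in P7 against E15.5 out of the calls and brought in Nrcam in P14 against E15.5 (-0.52, FDR 0.0478, edgeR). Depth limits Cntn6 most, at 50 to 123 counts in an MB library.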
